A study of Mus musculus with 2 samples.

Results

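Mesothelial cells of the lung surface were described here in lungs of mice with bone tumours, and 117 barcodes of 28280 met the rule for them. Single-cell RNA was sequenced on the 10x Genomics platform from lungs of female BALB/c mice that carried orthotopic tumours of K7M2, a mouse osteosarcoma line. The mice were assigned at random to 1V209-Cho-Lip, which the series title describes as a nanomedicine with an agonist of TLR7, an RNA-sensing receptor, or to PBS. Lungs of 3 mice were pooled into 1 library per group, so mice cannot be told apart, no test between groups exists, and treatment and library cannot be told apart in any difference given here. Dose, schedule and age were not given in the sources used here.

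A barcode was a member if it had at least 500 unique molecular identifiers (UMIs, counts of captured RNA molecules), at least 200 genes and at most 20% mitochondrial UMIs. Members were chosen by measured values: beyond these filters a barcode needed under 3% of its UMIs from S100a8 and S100a9, at least 3 detected genes among Msln, Upk3b, Wt1, Lrrn4, Krt19 and Gpm6a, and no UMI of Ptprc, Cdh5 or Sftpb. Those 3 genes mark leukocytes, endothelium and alveolar type 2 cells. The 1V209-Cho-Lip library gave 61 members among 13720 kept barcodes, and the PBS library gave 56 among 14560. The deposited matrices held 54843992 UMIs for 1V209-Cho-Lip and 58156102 UMIs for PBS.

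Mesothelial cells form the single-layered epithelium that lines the pleura. They make lubricants and antiadhesive surface mucins, hold a cytokeratin skeleton beside mesenchymal genes such as vimentin, and secrete complement factors, retinoid-handling proteins and IGF-binding proteins. In inflamed serous cavities they are known as a source of chemokines, acute-phase proteins and matrix regulators. Wt1 encodes their lineage transcription factor, Msln encodes the surface glycoprotein mesothelin, and Upk3b encodes a uroplakin.

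Promoters of 4 genes are shown first. Saa3, Lcn2 and Cxcl1 were among the genes that were higher in 1V209-Cho-Lip members and Ifit1 was among those that were lower. The motifs were added after values and earlier motif matches were seen, so the matches are descriptive. Each run covers 250 bases before to 50 after the gene start, 5′ to 3′, from RefSeq on GRCm38.p6. Capitals mark matches on either strand to TTGCNNAA (a C/EBP-type motif) or GGANTTTCC (an NF-kB-type motif) in the first 3 genes, and to GAAANNGAA (an interferon response motif) in Ifit1.
Saa3 (chr7:46715627-46715926, minus strand): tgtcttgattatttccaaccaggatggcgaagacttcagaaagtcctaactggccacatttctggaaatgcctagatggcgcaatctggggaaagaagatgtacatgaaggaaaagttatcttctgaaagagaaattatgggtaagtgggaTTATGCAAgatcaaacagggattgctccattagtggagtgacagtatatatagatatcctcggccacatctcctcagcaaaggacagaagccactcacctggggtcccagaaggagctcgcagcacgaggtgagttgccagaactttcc
Lcn2 (chr2:32387690-32387989, minus strand): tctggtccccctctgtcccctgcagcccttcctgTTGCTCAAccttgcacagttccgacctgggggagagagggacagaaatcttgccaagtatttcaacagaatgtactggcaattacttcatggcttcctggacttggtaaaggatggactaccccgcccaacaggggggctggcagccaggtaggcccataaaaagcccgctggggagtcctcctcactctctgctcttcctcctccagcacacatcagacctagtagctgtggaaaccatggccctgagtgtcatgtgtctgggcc
Cxcl1 (chr5:90890995-90891294, plus strand): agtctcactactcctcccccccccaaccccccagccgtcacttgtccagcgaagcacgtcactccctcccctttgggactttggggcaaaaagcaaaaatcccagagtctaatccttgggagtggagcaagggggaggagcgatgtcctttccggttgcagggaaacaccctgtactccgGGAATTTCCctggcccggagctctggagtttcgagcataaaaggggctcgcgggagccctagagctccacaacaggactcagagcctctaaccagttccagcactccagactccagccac
Ifit1 (chr19:34640639-34640938, plus strand): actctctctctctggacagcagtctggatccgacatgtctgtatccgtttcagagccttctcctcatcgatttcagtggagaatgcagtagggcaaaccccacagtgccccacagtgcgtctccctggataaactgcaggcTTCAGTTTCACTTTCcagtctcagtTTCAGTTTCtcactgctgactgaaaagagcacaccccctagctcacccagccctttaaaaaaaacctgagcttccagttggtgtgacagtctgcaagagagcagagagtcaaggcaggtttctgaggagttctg
The Saa3 and Lcn2 windows each held 1 match to TTGCNNAA, a pattern in 10.8% of 32851 promoters of the same length. Cxcl1 held 1 match to GGANTTTCC, found in 1.25% of promoters, and Ifit1 held 3 matches to GAAANNGAA, found in 8.56%; the first 2 of these overlap. Of the measured acute-phase genes 13 had a promoter in the table, and 5 of those held TTGCNNAA, 0 held GGANTTTCC and 1 held GAAANNGAA. Of the measured type I interferon-stimulated genes 23 had one, and 16 of those held GAAANNGAA, 1 held GGANTTTCC and 0 held TTGCNNAA. The Saa3 window also held 1 match to GAAANNGAA, which is not capitalised. A match is a description of letters in the window and not a binding site.

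The members carried the mesothelial programme beyond the genes of the rule. Levels are given as CPM, a gene's UMIs over all UMIs of a library's members, scaled to a total of 1000000. Those sums were 492577 UMIs in 1V209-Cho-Lip and 348857 UMIs in PBS. Msln stood at 3731 CPM in 1V209-Cho-Lip and 3497 CPM in PBS members, and Upk3b at 2170.2 CPM in 1V209-Cho-Lip and 2445 CPM in PBS members. The other chosen genes were at similar levels in both libraries: Wt1 at 158 CPM in 1V209-Cho-Lip and 192 CPM in PBS members, Lrrn4 at 501 CPM in 1V209-Cho-Lip and 419 CPM in PBS, and Gpm6a at 1533 CPM in 1V209-Cho-Lip and 1840.3 CPM in PBS. All 6 markers were detected in 26 1V209-Cho-Lip and 19 PBS members. These 6 genes chose the members, and their levels are descriptive.

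Genes outside the rule gave the same picture of identity. Upk1b, another uroplakin, was at 810.0 CPM in 1V209-Cho-Lip and 754 CPM in PBS members, against at most 7.08 CPM in fibroblast, alveolar type 1 and endothelial barcodes of either library. Muc16, the large antiadhesive surface mucin, was at 729 CPM in 1V209-Cho-Lip and 550.4 CPM in PBS members and at no more than 1.18 CPM in the other sets. Those sets left out any barcode with a Msln or Upk3b UMI. Low levels of mesothelial genes there were thus in part set by the rules. The retinoid-synthesising enzyme gene Aldh1a2 was at 696 CPM in 1V209-Cho-Lip and 1012 CPM in PBS members. Of 25 listed mesothelial genes outside the rule, 24 had at least 30 UMIs over both sums. Cpe, a carboxypeptidase gene that processes prohormones, was the 1 member at least 2-fold higher in 1V209-Cho-Lip, and none was 2-fold lower. Their median log2 ratio was 0.16, beside 0.06 over all 4342 genes with 30 UMIs. Of those 4342 genes 7.32% were at least 2-fold higher in 1V209-Cho-Lip members and 2.88% at least 2-fold lower.

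**Figure D1:**
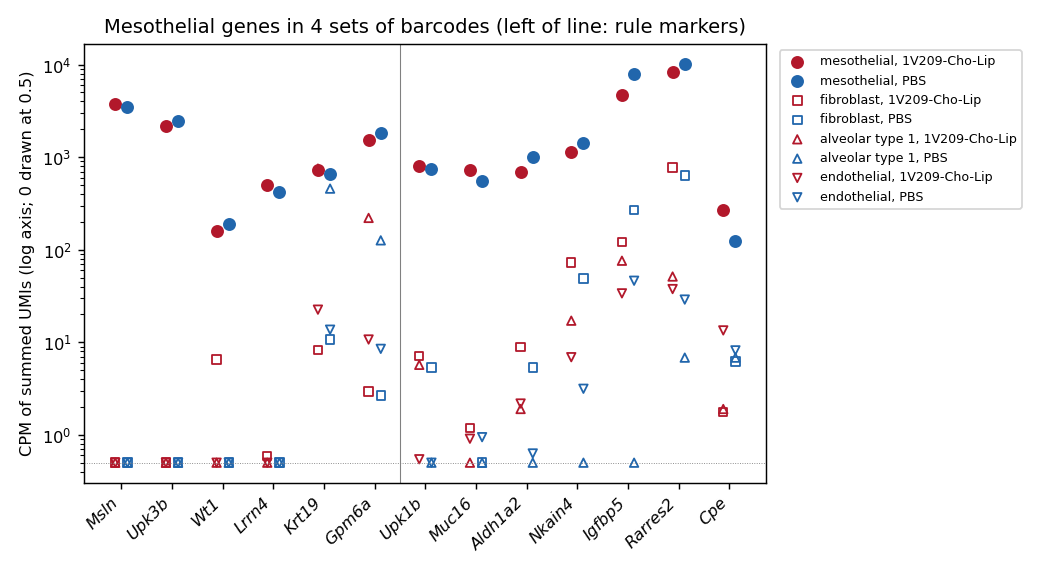
CPM (log axis, 0 drawn at 0.5) of 6 rule genes and 7 other mesothelial genes in mesothelial, fibroblast, alveolar type 1 and endothelial barcodes, 1V209-Cho-Lip in red left of PBS in blue. Filled circles are the mesothelial sums. Upk1b and Muc16, which the rule did not use, stood at 810.0 and 729 CPM in 1V209-Cho-Lip members and at no more than 7.08 and 1.18 CPM in the other sets. The other sets left out any barcode with a Msln or Upk3b UMI.

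Kept barcodes under the S100a8 and S100a9 limit were clustered by expression. Of the 117 members, 115 fell in 1 cluster of 184 barcodes, 92 from each library. Its leading genes were Upk3b, Fxyd3, Upk1b, Muc16, Lrrn4, Pkhd1l1, Igfbp5, Aldh1a2, Gpm6a and Nkain4. The clustering used the genes of the rule, so this is a description. The 2 remaining members, both from 1V209-Cho-Lip, fell in a cluster led by Igfbp2, Rtkn2 and Ager and in one led by Ccl11 and Dcn. Barcodes just outside the rule, with 2 markers and the excluded genes at 0, numbered 70 in 1V209-Cho-Lip and 33 in PBS. Msln was at 40.2 CPM in 1V209-Cho-Lip and 98.6 CPM in PBS barcodes of that kind. Members just inside the rule, with exactly 3 markers, had Msln at 1757 CPM in 1V209-Cho-Lip and 2738 CPM in PBS. Krt19 was carried by those just outside at 763 CPM in 1V209-Cho-Lip and 831 CPM in PBS.

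Members made up 0.445% (exact 95% interval 0.340 to 0.571) of kept barcodes in 1V209-Cho-Lip and 0.385% (0.291 to 0.499) in PBS. The ratio was 1.16 (0.791 to 1.69), and the interval of the ratio spans 1. Of kept barcodes with no Ptprc UMI, members made up 1.25% in 1V209-Cho-Lip and 1.06% in PBS. Of barcodes under the S100a8 and S100a9 limit, 8781 in 1V209-Cho-Lip and 12960 in PBS, members made up 0.695% in 1V209-Cho-Lip and 0.432% in PBS, a ratio of 1.61 (1.10 to 2.35). The ratio of shares thus depends on the denominator. These intervals, and all others given here, cover counting error only and not the spread between mice. Intervals of CPM ratios also leave out the clumping of a gene's UMIs in single barcodes. Member depth ran from 738 to 34629 UMIs with a median of 5744 in 1V209-Cho-Lip, and from 568 to 37092 with a median of 4585 in PBS. No member barcode was shared by the libraries, although 268 barcode sequences occurred in both and 3 of these belonged to members.

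A few members carried RNA of another cell type or of dividing cells, and 6 of them were therefore also left out. They were picked after their values were seen, by limits applied to both libraries: at least 8 alveolar type 1 markers, 10 UMIs of B-cell markers or 10 proliferation genes. In 1V209-Cho-Lip, 2 barcodes held 9 of 9 alveolar type 1 markers with 362 and 535 UMIs of that list, 1 held 17 UMIs of B-cell markers, and 1 held 16 of 19 proliferation genes. In PBS, 1 held 20 UMIs of B-cell markers, and the deepest of the members held 15 of 19 proliferation genes and 258 UMIs of Cd74. One of the 2 barcodes with alveolar type 1 markers had 6 UMIs of Msln and none of Upk3b or C3. Without the 6 there were 57 1V209-Cho-Lip and 54 PBS members, 255 genes of 3855 (6.61%) were at least 2-fold higher and 95 (2.46%) at least 2-fold lower.

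Several of the widest ratios were not there without the 6. The alveolar type 1 gene Ager, which encodes the receptor for advanced glycation end products, stood at 709 CPM in 1V209-Cho-Lip and 5.73 CPM in PBS members. Without the 6 it stood at 11.3 CPM in 1V209-Cho-Lip and 6.85 CPM in PBS. Of 9 alveolar type 1 markers 7 were at least 2-fold higher over all members, and 0 of the 3 still measured were without the 6. Among 6 measured proliferation genes 5 were at least 2-fold lower over all members; without the 6 none had 30 UMIs. The centromere gene Cenpf had 1 UMI in 1V209-Cho-Lip members and 47 UMIs in PBS members, and 46 of the PBS UMIs came from 1 barcode.

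**Figure D2:**
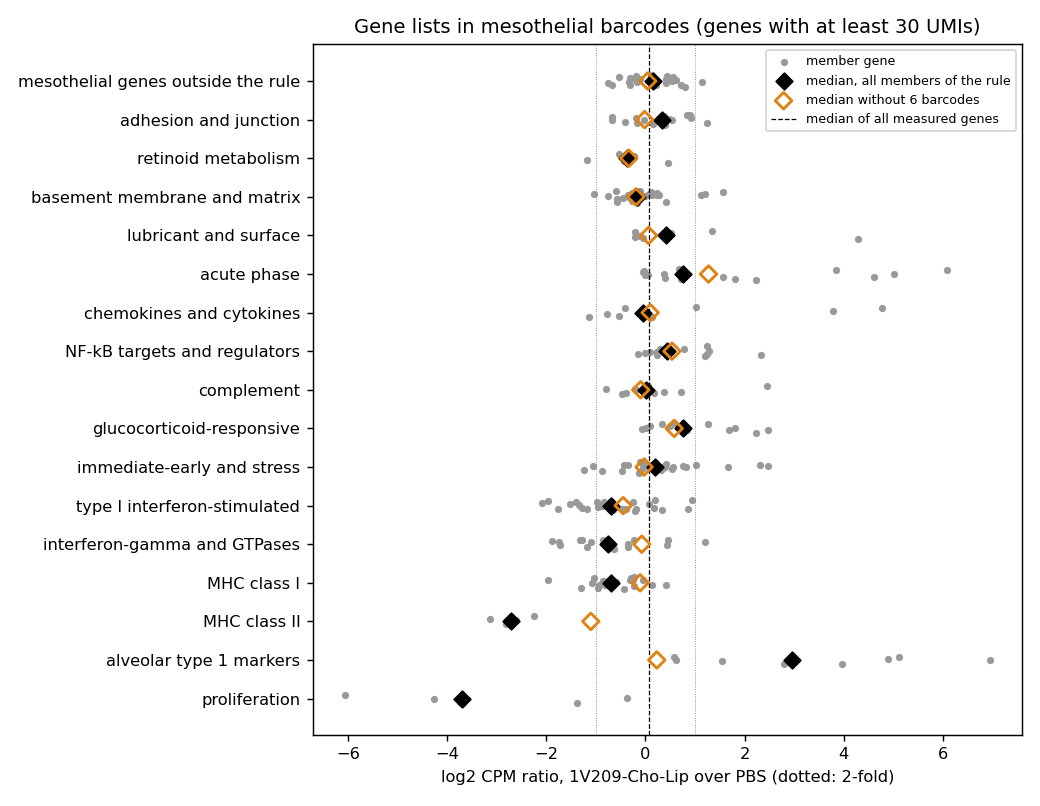
Log2 CPM ratios of 1V209-Cho-Lip over PBS for genes of 17 lists in mesothelial barcodes, with grey points for genes, black diamonds for list medians over all members and open orange diamonds for medians without 6 barcodes. The acute-phase median was 0.77 over all members and 1.27 without the 6, and the alveolar type 1 median was 2.96 over all members and 0.23 without the 6.

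Acute-phase genes were higher in 1V209-Cho-Lip members: 7 of 16 measured were at least 2-fold higher and 0 were 2-fold lower, with a median log2 ratio of 0.77. Without the 6 barcodes the count was 9 of 16 and the median 1.27. Cebpd (chr16:15887286-15891031, mm10), which encodes a C/EBP transcription factor induced in acute-phase responses, had 192 UMIs in 1V209-Cho-Lip members and 2 UMIs in PBS members. That gave 389.8 CPM in 1V209-Cho-Lip members against 5.73 CPM in PBS members, a ratio of 68.0 (18.6 to 565). It was detected in 29 of 61 1V209-Cho-Lip and 2 of 56 PBS members. As a background for detection, Scgb1a1, a secretory gene of airway club cells, was detected in 50 of 61 1V209-Cho-Lip and 45 of 56 PBS members, and members' median depths were 5744 UMIs in 1V209-Cho-Lip and 4585 UMIs in PBS. At an equal depth of 1000 UMIs the chance of detecting Cebpd averaged 18.2% over 1V209-Cho-Lip members and 0.244% over PBS members. These averages cover the 60 1V209-Cho-Lip and 51 PBS members with at least 1000 UMIs.

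Lcn2, which encodes the iron-siderophore-binding protein lipocalin 2, stood at 367 CPM in 1V209-Cho-Lip members against 11.5 CPM in PBS members, a ratio of 32.0 (12.3 to 119). It was detected in 18 of 61 1V209-Cho-Lip and 3 of 56 PBS members, and 3 1V209-Cho-Lip barcodes held 50, 48 and 47 of the 181 UMIs. Saa3, which encodes an acute-phase serum amyloid A made outside the liver, stood at 372 CPM in 1V209-Cho-Lip members against 25.8 CPM in PBS members, a ratio of 14.4 (7.42 to 32.0). The 3 deepest in Saa3 among 1V209-Cho-Lip barcodes held 52 UMIs of it each, which was most of its UMIs in 1V209-Cho-Lip members. No other 1V209-Cho-Lip member held more than 8, and 1 of the 3 is among the 6 barcodes. In all 13 1V209-Cho-Lip members held any, against 3 PBS members. Serpina3n, a secreted inhibitor of serine proteases, had 103 UMIs in 1V209-Cho-Lip members and 0 UMIs in PBS members; a floor of 3 counts in the PBS sum makes it at least 24.3-fold higher. Without the 6 barcodes the ratios were 21.5 for Lcn2 and 9.64 for Saa3, and Serpina3n was at least 14.3-fold higher. On the log2 scale the ratio of Saa3 was 3.85 under the rule, 6.78 with the cluster in place of the rule and 2.60 as a mean of each barcode's CPM. Thinned to 1000 UMIs per barcode, with the rule applied again, there were 56 1V209-Cho-Lip and 58 PBS members. Lcn2 then had a log2 ratio of 2.37, and Cebpd had one of 1.93 in place of 6.09. A thinned count of 0 was set to the floor of 3 counts, so these 2 values can be lower limits.

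The remaining acute-phase members were less far apart. Mt1, a metal-binding metallothionein, was at 1163 CPM in 1V209-Cho-Lip and 247 CPM in PBS members, a ratio of 4.72 (3.76 to 5.99). Timp1, an inhibitor of matrix metalloproteinases, was at 999 CPM in 1V209-Cho-Lip and 338 CPM in PBS members, a ratio of 2.95 (2.41 to 3.64). C3, the central complement component, was at 5831 CPM in 1V209-Cho-Lip and 4498 CPM in PBS members and was detected in 59 of 61 1V209-Cho-Lip and 55 of 56 PBS members. Its ratio was 1.30 (1.22 to 1.38), under 2-fold. Cfb, a factor of the alternative complement pathway, had a ratio of 1.65 (1.38 to 1.99) over all members and 2.05 without the 6 barcodes. Socs3, a feedback inhibitor of cytokine signalling, was at 150.2 CPM in 1V209-Cho-Lip and 155 CPM in PBS members, with a ratio of 0.971 (0.674 to 1.40). A single barcode held 20 of its 74 UMIs in 1V209-Cho-Lip and 36 of 54 in PBS. Without that barcode of each library Socs3 was at 111 CPM in 1V209-Cho-Lip and 52.7 CPM in PBS members, a log2 ratio of 1.08, so the value over all members rests on 1 PBS barcode. Of 11 measured complement genes 1, C1qbp, was 2-fold higher and none 2-fold lower, and their median log2 ratio was 0.00.

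Prg4, which encodes lubricin, a boundary lubricant of joint and serosal surfaces, lies at chr1:150449412-150466165 (mm10) and had 55 UMIs in 1V209-Cho-Lip members and 2 UMIs in PBS members. It was detected in 15 of 61 1V209-Cho-Lip and 2 of 56 PBS members, and its ratio was 19.5 (5.14 to 165) over all members and 23.2 without the 6 barcodes. Of the 55 UMIs 20 lay in 1 barcode that is among the 6, and so did 1 of the 2 PBS UMIs. The ratio of 23.2 thus rests on 1 PBS UMI. The antileukoproteinase gene Slpi was the other of the 10 measured lubricant and surface genes that was at least 2-fold higher; none was 2-fold lower, and the median log2 ratio was 0.42. Prg4 alone was at least 2-fold higher without the 6 barcodes, where the median was 0.06. Thinned to 1000 UMIs per barcode, Prg4 had a log2 ratio of 1.05 in place of 4.28. That value can be a lower limit, since a thinned count of 0 was set to the floor of 3 counts. Anxa1, whose product limits inflammation, was at 919.7 CPM in 1V209-Cho-Lip and 645 CPM in PBS members, and Cd44, the hyaluronan receptor, was at 126 CPM in 1V209-Cho-Lip and 146 CPM in PBS members. The water channel gene Aqp1 was at 834 CPM in 1V209-Cho-Lip and 863 CPM in PBS members.

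Cebpd, Lcn2, Saa3, Serpina3n and Prg4 were not detected in the same way in every member. At least 1 of the 5 was detected in 41 of 61 1V209-Cho-Lip and 9 of 56 PBS members, and at least 3 were detected in 15 1V209-Cho-Lip and 0 PBS members. The 15 had a median of 12367 UMIs, against 5210 UMIs in the other 46 1V209-Cho-Lip members, and the part of depth in this was not tested. None of the 5 was detected in 20 1V209-Cho-Lip members, with a median of 3569 UMIs, and in 47 PBS members, with a median of 4216 UMIs. The 5 genes were grouped after their values were seen.

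**Figure D3:**
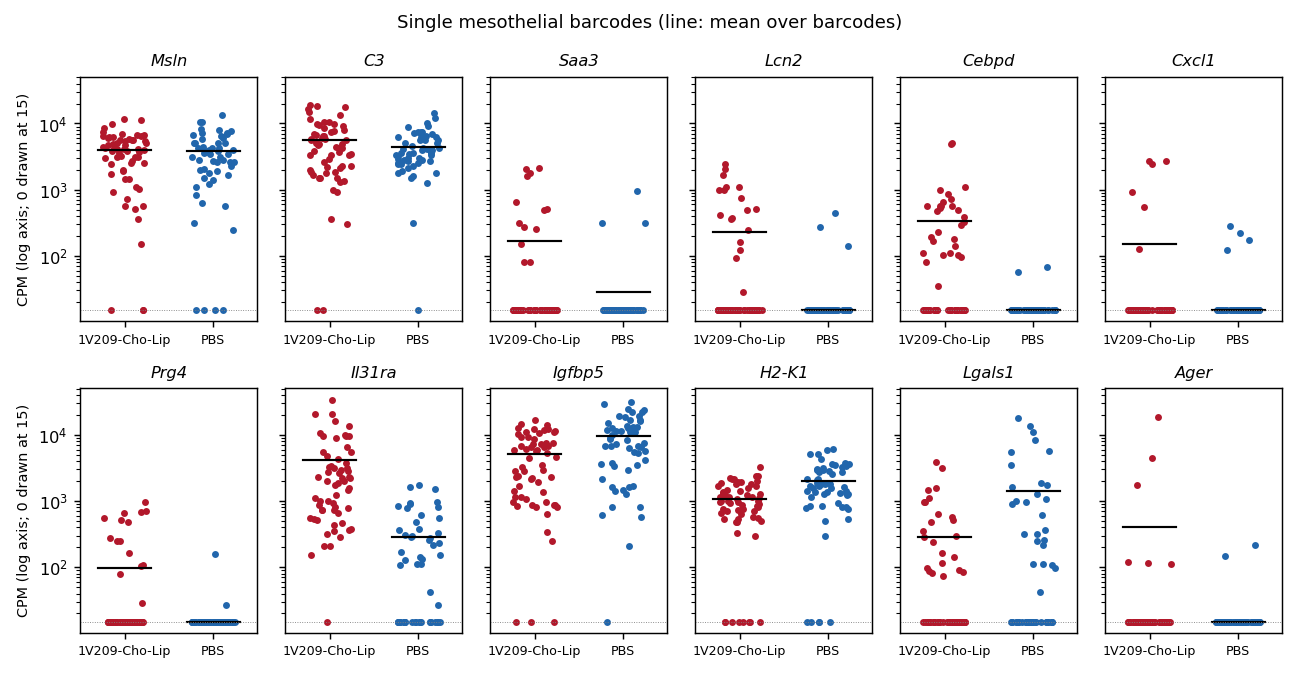
CPM of 12 genes in each mesothelial barcode (log axis, 0 drawn at 15), 1V209-Cho-Lip in red left of PBS in blue; black lines are means over barcodes. C3 was detected in 59 1V209-Cho-Lip and 55 PBS barcodes, Cebpd was detected in 29 1V209-Cho-Lip and 2 PBS barcodes, and Cxcl1 in 6 1V209-Cho-Lip and 4 PBS barcodes.

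Chemokine genes split by member. Cxcl1, a neutrophil attractant, stood at 313 CPM in 1V209-Cho-Lip members against 11.5 CPM in PBS members, a ratio of 27.3 (10.4 to 101), but only 6 1V209-Cho-Lip members held it and 1 of them held 65 of the 154 UMIs. Its log2 ratio was 4.77 under the rule, 0.89 with barcodes of at least 2 markers and 1.59 with the cluster in place of the rule. Cxcl10, the interferon-induced CXCR3 ligand, was lower at 128 CPM in 1V209-Cho-Lip and 281 CPM in PBS members, a ratio of 0.455 (0.326 to 0.631); with barcodes of at least 2 markers its log2 ratio was 0.55, the other direction. Csf1, the macrophage growth factor, was at 369 CPM in 1V209-Cho-Lip and 384 CPM in PBS members, with a ratio of 0.962 (0.765 to 1.21). Kitl, the ligand of the receptor Kit, was at 274 CPM in 1V209-Cho-Lip and 249 CPM in PBS members, with a ratio of 1.10 (0.833 to 1.46). Of 9 measured chemokines and cytokines 3 (Cxcl1, Cxcl2 and Il33) were at least 2-fold higher and 1 was 2-fold lower; without the 6 barcodes 2 of 8 were higher and 2 lower.

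Targets and regulators of NF-kB were higher in part: 5 of 15 measured were at least 2-fold higher, 0 were 2-fold lower, and the median log2 ratio was 0.43. The 5 were Tnfaip3, Nfkb1, Sod2, Relb and Ier3. Tnfaip3, which encodes the NF-kB inhibitor A20, was at 144 CPM in 1V209-Cho-Lip and 28.7 CPM in PBS members, a ratio of 5.03 (2.58 to 10.9), from 10 1V209-Cho-Lip and 4 PBS members. The early response gene Ier3 was at 575 CPM in 1V209-Cho-Lip and 249 CPM in PBS members, a ratio of 2.30 (1.81 to 2.96) over all members and 1.99 without the 6 barcodes. Thinned to 1000 UMIs per barcode, Ier3 had a log2 ratio of -0.66, the other direction. Nfkbia, the feedback inhibitor IκBα, was at 593 CPM in 1V209-Cho-Lip and 505 CPM in PBS members, under 2-fold apart, and so was Nfkbiz at 436 CPM in 1V209-Cho-Lip and 355 CPM in PBS members. The adhesion ligand gene Icam1 had a ratio of 1.71 (1.29 to 2.29) over all members and 1.24 without the 6 barcodes.

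Tlr7, the receptor that the agonist targets, was not detected in a member of either library. With 0 of 492577 UMIs in 1V209-Cho-Lip and 0 of 348857 UMIs in PBS, 3 counts set an upper limit of 6.09 CPM in 1V209-Cho-Lip and 8.60 CPM in PBS. Over the whole libraries Tlr7 had 863 UMIs in 1V209-Cho-Lip and 1094 UMIs in PBS. Tlr8 and Tlr9, other endosomal receptors of nucleic acids, also had 0 UMIs in members of both. Tlr4, the receptor for lipopolysaccharide, was detected in 29 of 61 1V209-Cho-Lip and 25 of 56 PBS members, at 156 CPM in 1V209-Cho-Lip and 109 CPM in PBS members, a ratio of 1.44 (0.961 to 2.18). Tlr3, which senses double-stranded RNA, had 3 UMIs in 1V209-Cho-Lip and 9 UMIs in PBS members, and Myd88, the adaptor of most Toll-like receptors, was at 52.8 CPM in 1V209-Cho-Lip and 71.7 CPM in PBS members.

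Of the type I interferon-stimulated list, 1V209-Cho-Lip members had lower levels: 8 of 29 measured were at least 2-fold lower, 0 were 2-fold higher, and the median log2 ratio was -0.70. Without the 6 barcodes 5 of 28 were 2-fold lower, 1 was 2-fold higher and the median was -0.45. After thinning every barcode to 1000 UMIs the median was -0.14, and with genes of at least 100 UMIs it was -0.25. Ifit1, an antiviral RNA-binding protein gene, stood at 24.4 CPM in 1V209-Cho-Lip members against 94.6 CPM in PBS members, a ratio of 0.258 (0.121 to 0.512) over all members and 0.172 without the 6. Ifit3, of the same family, had a ratio of 0.294 (0.156 to 0.528), and Ifi44 one of 0.236 (0.119 to 0.441); 24 of the 42 Ifi44 UMIs and 18 of the 41 Ifit3 UMIs in PBS came from 1 barcode each. Irf7, the transcription factor that amplifies interferon production, was at 87.3 CPM in 1V209-Cho-Lip and 249 CPM in PBS members, a ratio of 0.350 (0.237 to 0.510) over all members and 0.603 without the 6. Mndal, an interferon-inducible nuclear DNA-binding protein gene that is not on the list, had a ratio of 0.275 (0.137 to 0.523).

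Members of that list with more UMIs were under 2-fold apart. Ifitm3, a membrane protein that restricts virus entry, was at 4507 CPM in 1V209-Cho-Lip and 4271 CPM in PBS members, with a ratio of 1.06 (0.988 to 1.13). Bst2, which tethers budding virions, was at 2111 CPM in 1V209-Cho-Lip and 1866 CPM in PBS members, with a ratio of 1.13 (1.02 to 1.25). Ifi27l2a was at 1263 CPM in 1V209-Cho-Lip and 1665 CPM in PBS members, and Ifitm2 at 879 CPM in 1V209-Cho-Lip and 459 CPM in PBS members. The genes past 2-fold included Ifi44, Ifit1, Ifit3, Irf7, Ifit3b, Ifih1 and Trim30a.

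Genes of the interferon-gamma response and of antigen presentation were lower over all members and less so without the 6 barcodes. Of 16 measured interferon-gamma and GTPase genes 7 were at least 2-fold lower with a median of -0.76; without the 6 barcodes 0 of 15 were and the median was -0.07. Gbp9, a guanylate-binding protein, had a ratio of 0.270 (0.142 to 0.490) over all members and 0.523 without the 6. Class II genes, which present peptides to CD4 T cells, were all 4 at least 2-fold lower over all members, with a median log2 ratio of -2.71. Of the 3 still measured without the 6 barcodes, 2 were 2-fold lower and the median was -1.10, and as a mean of each barcode's CPM the median was -0.29. The invariant chain gene Cd74 was at 259.9 CPM in 1V209-Cho-Lip and 1233 CPM in PBS members, a ratio of 0.211 (0.172 to 0.257) over all members and 0.393 without the 6. As a mean of each barcode's CPM the log2 ratio of Cd74 was 0.15, the other direction. A single barcode held 64 of 128 Cd74 UMIs in 1V209-Cho-Lip and 258 of 430 in PBS. B-cell markers were at 44.7 CPM in 1V209-Cho-Lip and 77.4 CPM in PBS members, and their part in the class II values was not tested.

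MHC class I genes, which present peptides to CD8 T cells, were lower by smaller ratios. H2-K1, a classical class I heavy chain, was at 1204 CPM in 1V209-Cho-Lip and 2462 CPM in PBS members and was detected in 53 of 61 1V209-Cho-Lip and 51 of 56 PBS members. A single barcode held 106 of its 593 UMIs in 1V209-Cho-Lip and 225 of 859 in PBS. Its ratio was 0.489 (0.440 to 0.543) over all members and 0.613 without the 6 barcodes. H2-D1 was at 1129 CPM in 1V209-Cho-Lip and 2158 CPM in PBS members, a ratio of 0.593 without the 6, and the light chain gene B2m was at 1636 CPM in 1V209-Cho-Lip and 2898 CPM in PBS members, a ratio of 0.724 without the 6. The class I paralogs share sequence, so reads may be split among H2-K1, H2-D1 and H2-Q6. Of 20 measured class I genes 4 were at least 2-fold lower and 0 higher, with a median of -0.69. Without the 6 barcodes 2 of 19 were 2-fold lower with a median of -0.11, and without called doublets the median was -0.18. The H2-K1 ratio was 0.923 in fibroblast, 0.893 in alveolar type 1 and 1.03 in endothelial barcodes. The class I list median was -0.38 in fibroblast, -0.80 in alveolar type 1 and -0.24 in endothelial barcodes. At least 2-fold lower were 4 of 22 measured genes in fibroblast, 5 of 15 in alveolar type 1 and 0 of 23 in endothelial barcodes, and 1 in fibroblast was 2-fold higher.

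Genes of growth-factor binding and matrix differed gene by gene. Igfbp5, an IGF-binding protein secreted by these cells, was at 4755 CPM in 1V209-Cho-Lip and 8012 CPM in PBS members, detected in 58 of 61 1V209-Cho-Lip and 55 of 56 PBS members, a ratio of 0.593 (0.561 to 0.627). Its upper quartile over members was 7622 CPM in 1V209-Cho-Lip and 13203 CPM in PBS, and the single barcodes overlapped. Igfbp6 was at 5368 CPM in 1V209-Cho-Lip and 6937 CPM in PBS members, a ratio of 0.774 (0.732 to 0.818). Gas6, the ligand of the TAM receptors, which act in the clearance of dying cells, was higher at 1301 CPM in 1V209-Cho-Lip and 378 CPM in PBS members, a ratio of 3.44 (2.85 to 4.18), and was detected in 55 of 61 1V209-Cho-Lip and 42 of 56 PBS members. Rspo1, which enhances Wnt signalling, was at 564 CPM in 1V209-Cho-Lip and 327 CPM in PBS members, a ratio of 1.73 (1.38 to 2.17). Vegfa, the angiogenic factor, had 45 UMIs in 1V209-Cho-Lip members and 0 UMIs in PBS members; without the 6 barcodes it had 5 UMIs in 1V209-Cho-Lip and 0 in PBS.

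Of 31 measured basement membrane and matrix genes 3 were at least 2-fold higher (Timp1, Col4a1 and Col4a2) and 1, Serpinh1, was 2-fold lower, with a median log2 ratio of -0.17. Serpinh1, the collagen chaperone, was at 572 CPM in 1V209-Cho-Lip and 1167 CPM in PBS members, a ratio of 0.491 (0.420 to 0.573) over all members and 0.511 without the 6 barcodes. Mgp, an inhibitor of calcification, was at 6862 CPM in 1V209-Cho-Lip and 9411 CPM in PBS members, and Sparc, a collagen-binding protein, at 1943 CPM in 1V209-Cho-Lip and 2884 CPM in PBS members. Of 12 measured genes of mesothelial to mesenchymal transition 2 were 2-fold higher, Thbs1 among them, and none was 2-fold lower. Thbs1, which encodes the matrix glycoprotein thrombospondin 1, was at 223 CPM in 1V209-Cho-Lip and 94.6 CPM in PBS members, a ratio of 2.36 (1.59 to 3.60). Thinned to 1000 UMIs per barcode its log2 ratio was -1.27, the other direction. Thinning also changed which barcodes were members, so depth was not the only change. Vimentin (Vim) was at 2493 CPM in 1V209-Cho-Lip and 2631 CPM in PBS members, with a ratio of 0.947 (0.869 to 1.03).

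Junction and retinoid genes were mostly under 2-fold apart. Itgb1, the integrin beta 1 chain, was at 337 CPM in 1V209-Cho-Lip and 143 CPM in PBS members, a ratio of 2.35 (1.70 to 3.29), and was the 1 gene of 16 measured adhesion and junction genes past 2-fold. Cldn15, a claudin of these cells, was at 211 CPM in 1V209-Cho-Lip and 338 CPM in PBS members. Of 6 measured retinoid genes Rbp4, a retinol carrier, was 2-fold lower at 56.8 CPM in 1V209-Cho-Lip and 129 CPM in PBS members; without the barcode with the most Rbp4 UMIs in each library its log2 ratio was -0.92. Rarres2, which encodes the chemoattractant chemerin, was at 8261 CPM in 1V209-Cho-Lip and 10179 CPM in PBS members, a ratio of 0.812 (0.776 to 0.849). The galectin gene Lgals7 was lower at 67.0 CPM in 1V209-Cho-Lip and 198 CPM in PBS members, a ratio of 0.339 (0.217 to 0.520). Its CPM was at most 0.157 in the fibroblast, alveolar type 1 and endothelial sums, which left out barcodes with a Msln or Upk3b UMI. Lgals1, another galectin, was at 439 CPM in 1V209-Cho-Lip and 1525 CPM in PBS members; 24 of 61 1V209-Cho-Lip and 27 of 56 PBS members held it, and with the cluster in place of the rule its log2 ratio was 0.10 instead of -1.80.

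Some of the genes with the widest differences in members were also higher in other structural cells, with ratios that differed between sets and were not tested against each other. Il31ra (chr13:112519898-112594360, mm10), a cytokine receptor chain, was at 3492 CPM in 1V209-Cho-Lip and 186 CPM in PBS members and was detected in 60 of 61 1V209-Cho-Lip and 32 of 56 PBS members. Its ratio was 18.7 in mesothelial, 9.07 in fibroblast, 10.4 in alveolar type 1 and 10.9 in endothelial barcodes. Scand1, a SCAN-domain protein gene, had 127 UMIs in 1V209-Cho-Lip members and 2 UMIs in PBS members, and its ratio was 35.3 in fibroblast, 76.3 in alveolar type 1 and 45.6 in endothelial barcodes. The calcium-dependent kinase gene Camk1d had a ratio of 8.62 in mesothelial, 4.12 in fibroblast, 4.43 in alveolar type 1 and 4.70 in endothelial barcodes. Nenf, a secreted haem-binding factor gene, and Iscu, the scaffold of iron-sulphur cluster assembly, were 9.82 and 13.7 times higher in 1V209-Cho-Lip members, and at least 4.48 and 5.08 times in the other sets. These sets were chosen with rules of the same form, which also left out barcodes with a Msln or Upk3b UMI. They held 408 1V209-Cho-Lip and 292 PBS fibroblast, 164 1V209-Cho-Lip and 76 PBS alveolar type 1, and 2265 1V209-Cho-Lip and 2581 PBS endothelial barcodes. The barcodes chosen by the alveolar type 1 rule also carried airway markers, at 79416 CPM in 1V209-Cho-Lip and 95621 CPM in PBS, against 347 CPM in 1V209-Cho-Lip and 436 CPM in PBS members, so their name stands for the rule and not for a pure cell type.

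The glucocorticoid-responsive list had 5 of 13 measured genes at least 2-fold higher (Dusp1, Mt1, Mt2, Fkbp5 and Cdkn1a), 0 lower and a median of 0.75. Mt1 and Mt2 are also on the acute-phase list, and Dusp1 is on the immediate-early and stress list. The median was 0.58 without the 6 barcodes, 0.21 with the cluster in place of the rule and 1.29 after thinning to 1000 UMIs. In the other sets it was 0.55 in fibroblast, 1.11 in alveolar type 1 and 0.64 in endothelial barcodes. Dusp1, a phosphatase that turns off MAP kinases, was at 1082 CPM in 1V209-Cho-Lip and 195 CPM in PBS members, and its ratio was 5.55 in mesothelial, 4.33 in fibroblast, 5.43 in alveolar type 1 and 4.57 in endothelial barcodes. Tsc22d3, a classic glucocorticoid target, was at 379.6 CPM in 1V209-Cho-Lip and 255 CPM in PBS members, a ratio of 1.49 (1.15 to 1.94). Immediate-early and stress genes had 4 of 26 at least 2-fold higher and 2 lower with a median of 0.20. Without the 6 barcodes 2 of 25 were 2-fold higher and 3 lower with a median of -0.03, and the median was -0.13 without the deepest barcode of each library, -0.42 after thinning to 1000 UMIs and 0.61 without called doublets. Fos was at 2195 CPM in 1V209-Cho-Lip and 2376 CPM in PBS members, Jun at 1527 CPM in 1V209-Cho-Lip and 871 CPM in PBS members and Atf3 at 981 CPM in 1V209-Cho-Lip and 1058 CPM in PBS members. Over all members of each set the same list had a median of 0.20 in mesothelial, 0.85 in fibroblast, 0.88 in alveolar type 1 and 0.81 in endothelial barcodes. No test of that difference exists with 1 library per group.

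The acute-phase genes had different ratios in the 4 sets, and these differences were not tested. Saa3 stood at 1615 CPM in 1V209-Cho-Lip and 55.2 CPM in PBS fibroblast barcodes, a ratio of 29.3 (22.8 to 38.3), beside 14.4 (7.42 to 32.0) in members. Those intervals overlap. Lcn2 had a ratio of 32.0 in mesothelial, 11.8 in fibroblast, 1.11 in alveolar type 1 and 6.78 in endothelial barcodes. Cebpd had a ratio of 68.0 in mesothelial, 22.8 in fibroblast, 21.8 in alveolar type 1 and 13.4 in endothelial barcodes. Its wide counting interval in members, given above, holds the fibroblast and alveolar type 1 ratios. Cxcl1 had a ratio of 27.3 in mesothelial, 1.39 in fibroblast, 0.0793 in alveolar type 1 and 0.595 in endothelial barcodes, so that its direction differed between sets. The list had 7 of 16 genes past 2-fold in members, 12 of 20 in fibroblast, 2 of 10 in alveolar type 1 and 10 of 20 in endothelial barcodes, and 1 gene was 2-fold lower, in alveolar type 1 barcodes. Over all measured genes, 6.76% were 2-fold higher and 3.78% lower in fibroblast, 14.1% higher and 7.13% lower in alveolar type 1, and 4.6% higher and 3.24% lower in endothelial barcodes. The same 2 libraries give all 4 comparisons.

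**Figure D4:**
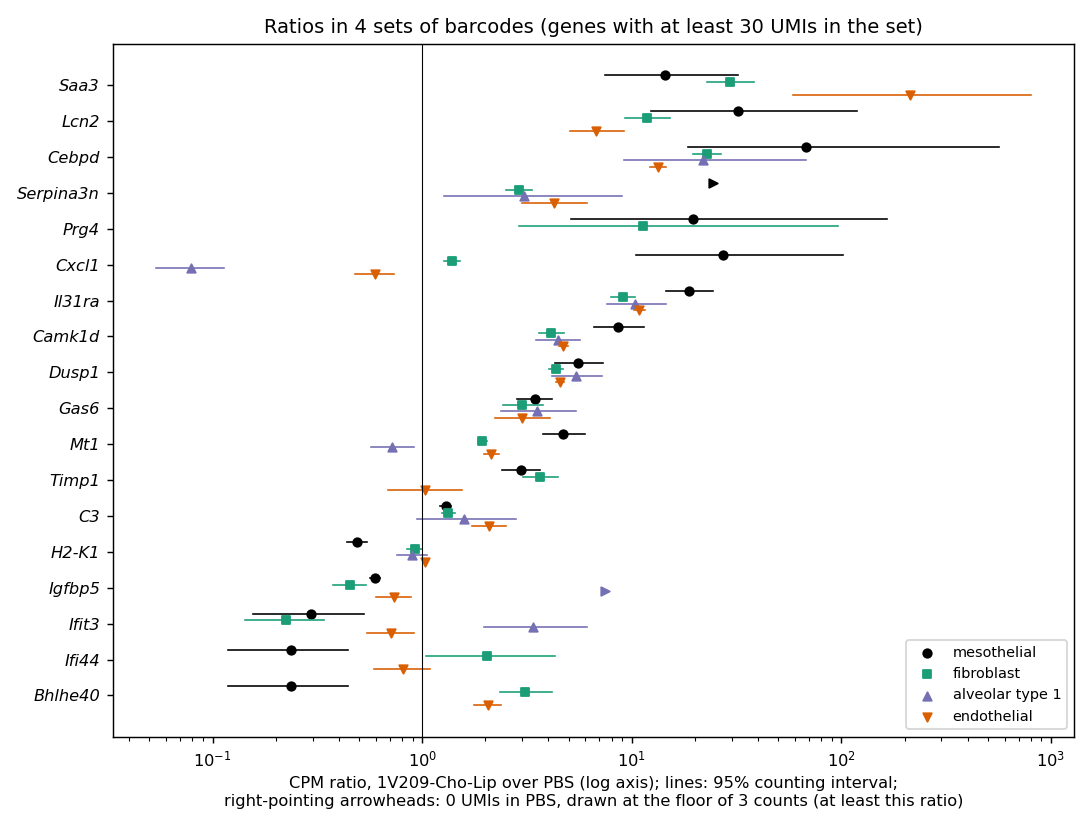
CPM ratios of 1V209-Cho-Lip over PBS (log axis) with 95% counting intervals for 18 genes in mesothelial, fibroblast, alveolar type 1 and endothelial barcodes; arrowheads mark 0 UMIs in PBS, drawn at a floor of 3 counts. Il31ra, Camk1d, Dusp1 and Gas6 were higher in all 4 sets, and Bhlhe40 was at 0.236 in mesothelial and 3.10 in fibroblast barcodes.

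Markers of other cell types were summed in members too. Neutrophil markers summed to 922 CPM in 1V209-Cho-Lip and 152 CPM in PBS members, which was 1.79% of their CPM over the whole 1V209-Cho-Lip library and 1.75% over the whole PBS library. Lcn2 is on that list too, and it stood in members at 51.2% of its library CPM in 1V209-Cho-Lip and 12.2% in PBS. S100a8 was at 99.5 CPM in 1V209-Cho-Lip and 8.60 CPM in PBS members, or 0.703% of its library CPM in 1V209-Cho-Lip and 0.452% in PBS; the rule limited this gene. Red cell markers summed to 12.2 CPM in 1V209-Cho-Lip and 373 CPM in PBS members, and Hbb-bs, a beta globin, was detected in 3 of 61 1V209-Cho-Lip and 17 of 56 PBS members. Fibroblast markers summed to 6239 CPM in 1V209-Cho-Lip and 7430.0 CPM in PBS members, and Dcn, which mesothelial cells also express, accounted for 2095 CPM in 1V209-Cho-Lip and 2468 CPM in PBS. The part of RNA of other cells in the differences above was not tested.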

How the data were processed

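The authors deposited count matrices of UMIs per gene and barcode, from Cell Ranger 9.0.1 per the file headers, on mm10 per the labels; no source used here names the annotation. GENCODE vM21, used for positions, held 52081 of 55357 gene identifiers. The submitters' extraction note names a bulk RNA kit beside the 10x protocol. Members and gene lists were chosen with earlier results of these data known. Counts were summed over members per library and scaled to CPM. Genes needed 30 UMIs over both sums, and past 2-fold means a CPM ratio of at least 2 or at most 0.5. Ratio intervals are exact conditional binomial and share intervals exact Clopper-Pearson, at 95% (scipy 1.17.1). The ratio intervals were tried on simulated counts drawn independently. Such a draw meets their assumption, so it cannot show how they hold where a gene's UMIs clump in single barcodes. With 1 library per group no test was run. Named genes were the rule markers, of each list up to 4 members with the most UMIs and both extremes, and the 12 widest ratios in each direction among genes with 40 UMIs and at least 25% of their library CPM, leaving out mitochondrial, ribosomal protein, haemoglobin, antigen receptor and predicted genes. That ranking without 6 barcodes, the ratios without a library's deepest barcode or a gene's richest barcode, Tlr7, Tlr8, Tlr9, Tlr3, Upk1b, S100a8, list members named only as past 2-fold, and the promoter motifs were added after values and earlier motif matches were seen; some genes are not reported here. Doublets were not removed, and Scrublet in Scanpy 1.11.5 called 7 of 61 1V209-Cho-Lip and 9 of 56 PBS members. Over all kept barcodes it called 10.6% in 1V209-Cho-Lip and 13.1% in PBS. Clustering used 1806 variable genes, 30 components, 15 neighbours and Leiden resolution 2. Alternatives covered filters, markers, doublets, clusters, thinning, and TMM (edgeR 4.0.16) or median-of-ratios scaling.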

Additional observations from a re-analysis of the deposited data

Results flagged for a closer look

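For 6 genes members went one way between the libraries and another set of barcodes the other, by at least 2-fold each and with counting intervals that left out 1. How many of all measured genes did so is not given here. Of all measured genes 7.32% were at least 2-fold higher and 2.88% lower in members. In alveolar type 1 barcodes 14.1% were higher and 7.13% lower. These differences were not tested, since each set came from 1 library per group, and the alveolar type 1 rule also took barcodes with airway markers. Bhlhe40, a transcription factor of circadian and stress responses, had a CPM ratio of 0.236 in mesothelial barcodes, 3.10 in fibroblast and 2.05 in endothelial barcodes. Cxcl1 had a ratio of 27.3 in mesothelial and 0.0793 in alveolar type 1 barcodes. Tnfaip3 stood at 5.03 in mesothelial and 0.245 in alveolar type 1 barcodes. Ifit3 had a ratio of 0.294 in mesothelial and 3.38 in alveolar type 1 barcodes. The ratio of Ifi44 was 0.236 in mesothelial and 2.04 in fibroblast barcodes, and that of Rbp4 was 0.441 in mesothelial and 2.04 in endothelial barcodes. Few members held Cxcl1, and single PBS barcodes held much of the Ifi44 and Ifit3 UMIs of members. Without the richest barcode of each library Rbp4 was under 2-fold apart in members.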

How the results depend on the processing

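The share ratio ran from 0.993 to 1.56 under 13 alternatives, within its counting interval of 0.791 to 1.69. The denominator of barcodes under the S100a8 and S100a9 limit was not among them and gave 1.61 (1.10 to 2.35). Of 38 counts of genes past 2-fold, 28 were within 1.5 times of 318 higher and 125 lower. The other counts higher were 491 with at least 2 of 6 markers, 22 after thinning to 1000 UMIs, 722 with a minimum of 15 UMIs and 59 with 100 UMIs. The other counts lower were 301 with 2 markers, 215 with the cluster, 19 after thinning, 237 with the mean of each barcode's CPM, 376 with 15 UMIs and 28 with 100 UMIs. Of 557 list medians 504 moved by no more than the median half-width of their genes' intervals, 44 moved further and 9 turned. The proliferation median turned to 0.68 without called doublets and 0.80 without the deepest barcode of each library. The macrophage median was 0.10 without doublets, 0.32 with the cluster, 0.059 without the 6 barcodes and 0.22 without the deepest. Smooth muscle markers stood at -0.93 with the cluster and -0.65 with 15 UMIs, and Def8, the 1 measured gene of its list, at 1.22 with the cluster and 0.47 thinned. Of 2368 single-gene log2 ratios 2047 stayed within their intervals, 311 moved and 10 turned: Cxcl10 to 0.55 and Il1b to -0.25 with 2 markers, Ier3 to -0.66 and Thbs1 to -1.27 thinned, Cd74 to 0.15 with the mean of each barcode's CPM, Lgals1 to 0.10 with the cluster, Rgcc to -0.18 without the 6 and Cenpa to 1.45 without the deepest, beside the 2 of Def8. The causes were not tested. Genes with at most 3 UMIs in both sums under an alternative have no value there. TMM shifted log2 ratios by 0.02 and median-of-ratios scaling by 0.05. No paired analysis was possible because each group was 1 library, and no replicate could be left out. Depth of 61 1V209-Cho-Lip and 56 PBS members limits genes below 30 UMIs, and intervals hold no spread between mice.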

Other observations

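Among genes not described so far, Olr1, the receptor for oxidised low-density lipoprotein, had 51 UMIs in 1V209-Cho-Lip members and 1 UMI in PBS members, and 36 of the 1V209-Cho-Lip UMIs lay in 1 of 6 barcodes that held it. The imprinted noncoding RNA gene Meg3 was lower at 40.6 CPM in 1V209-Cho-Lip and 135 CPM in PBS members, a ratio of 0.301 (0.169 to 0.519), and Lama4, a laminin alpha chain, was at 40.6 CPM in 1V209-Cho-Lip and 118 CPM in PBS members, a ratio of 0.345 (0.192 to 0.603). Raly, an RNA-binding protein gene, was higher at 156 CPM in 1V209-Cho-Lip and 25.8 CPM in PBS members, with ratios of 3.69 in fibroblast, 2.54 in alveolar type 1 and 2.89 in endothelial barcodes. Dnajb1, a heat-shock co-chaperone, was at 156 CPM in 1V209-Cho-Lip and 367 CPM in PBS members, and 71 of its 128 PBS UMIs lay in 1 barcode. Those genes are given as values, with no test.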
